A study of Saccharomyces cerevisiae with 11 samples.

Results

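ALA1, GRS1, HTS1 and VAS1 encode the alanyl-, glycyl-, histidyl- and valyl-tRNA synthetases of budding yeast (Saccharomyces cerevisiae), and each of these genes is known to supply its enzyme to both the cytosol and the mitochondria. The genes were found by symbol in the deposited SK1 annotation, and every candidate open reading frame (ORF) listed under them was taken and placed by its distance from the annotated start. These 4 of 6707 annotated genes had 152 of the 192230 candidate ORFs in the deposited table: 50 in ALA1, 8 in GRS1, 34 in HTS1 and 60 in VAS1. The annotation describes GRS1, HTS1 and VAS1 as cytoplasmic and mitochondrial enzymes and ALA1 as a cytoplasmic one.

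All 11 libraries were ribosome footprints from SK1 cells treated with 3 µM lactimidomycin (LTM), a drug that stalls ribosomes at start codons. A vegetative library came from exponential growth at an OD600 of 0.6 and another from a saturated culture at an OD600 of 10. Cells in sporulation medium were taken at 0, 1.5, 3, 4.5, 6, 8, 10 and 22 h, and MATa/a cells, which cannot enter meiosis, at 4.5 h. Each group is 1 library, and the table gives 1 value per candidate with 0 columns for single libraries, so nothing below compares conditions, carries a replicate error or has a statistical test, and the depth behind a value is unknown.

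An aminoacyl-tRNA synthetase joins an amino acid to its tRNA, and mitochondria need their own charged tRNAs for the proteins they translate. Where 1 gene serves both compartments, translation from an upstream start adds an N-terminal presequence that directs the protein to mitochondria, and translation from a downstream start gives the cytosolic form. In HTS1 and VAS1 both starts are known to be AUG codons, and the annotated ORF begins at the first. In ALA1 the mitochondrial form is known to begin at ACG, upstream of the annotated AUG, and in GRS1 at UUG. The UUG start of GRS1 is not analysed here.

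The start regions show what separates the 2 forms. They are printed from the S288C reference (R64, from RefSeq) by distance from the annotated start, since the SK1 genome sequence was not used here. The coding sequences have equal lengths in both annotations for all 4 genes (2877, 2004, 1641 and 3315 nucleotides for ALA1, GRS1, HTS1 and VAS1). The codon at the same distance was the same for 146 of 152 candidates. It was the same for 21 of 21 whose ORF ends at the stop codon of the gene. Capitals mark start codons, each with 12 bases before the first and 15 after the last.
ALA1 ACG start, chrXV:949167-949196, minus strand: atttaagacaagACGacgtcaactaccgga
ALA1 annotated AUG, chrXV:949092-949121, minus strand: actagaaccataATGacgatcggtgataag
GRS1 annotated AUG, chrII:483350-483379, minus strand: aagattaaaagaATGagtgtagaagatatc
GRS1 AUC candidate, chrII:483494-483523, minus strand: ttaggactcgaaATCtgttcaattactttt
HTS1 from the first to the second AUG, chrXVI:638942-639031, minus strand: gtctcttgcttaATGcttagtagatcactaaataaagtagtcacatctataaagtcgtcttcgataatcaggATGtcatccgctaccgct
VAS1 from the first to the second AUG, chrVII:672174-672341, plus strand: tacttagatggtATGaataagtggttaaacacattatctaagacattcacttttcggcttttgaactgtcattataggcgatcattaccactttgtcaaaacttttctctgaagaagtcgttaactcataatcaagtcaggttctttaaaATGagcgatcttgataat

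A forest score above 0.5, the higher of the cut-offs in the deposited notes, was reached by 10 of the 152 candidates. The score runs from 0 to 1 and comes from a random forest fitted by the authors. These candidates are called rated. The share rated was 13.5% of all candidates in the series. Of the 10, 6 lay in ALA1, 1 in GRS1, 1 in HTS1 and 2 in VAS1. Candidates whose ORF ends at the stop codon of the gene are called in-frame here. They numbered 21, of which 6 were rated. The others numbered 131, of which 4 were rated. Among the others are upstream ORFs of HTS1 that lie in the frame of the gene but end before it.

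By class, the rated candidates of the 4 genes were 2 of 2 annotated starts, where 93.3% were rated over all genes, 1 of 2 extensions (4.57% over all genes) and 3 of 17 truncations (2.71%). Extensions begin upstream in frame, truncations begin inside the gene in frame, and both share its stop codon. Among the other classes, 1 of 17 upstream ORFs was rated (22% over all genes) and 3 of 108 internal ORFs (10.3%). None was rated of 4 ORFs overlapping the start (20.2%), of 1 overlapping the stop (7.87%) and of 1 downstream of the gene (2.7%). With so few candidates per class these shares are a description of the 4 genes.

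The evidence for a start in the LTM footprints is given by a deposited score, called LTM evidence here. It is never negative and has no stated scaling, so its ratios and shares are not amounts of initiation. It was concentrated on very few positions in these genes. Only 5 of the 152 candidates were above 100, against 5.35% of all candidates in the table, and the median was 0.0208. Among the listed candidates, a single start held 99.98% of the summed LTM evidence of HTS1 and 99.99% of that of GRS1. In VAS1 it held 86.2% and in ALA1 82.9%, which the second strongest candidate raised to 99.3%. The first AUG of HTS1 and of VAS1 has no row and is not in these sums, nor is the UUG start of GRS1. No such share is given for other genes, so whether this concentration is particular to these genes was not tested. The 10 rated candidates were all among the 16 with LTM evidence above 1, and LTM evidence is an input of the score.

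**Figure D1:**
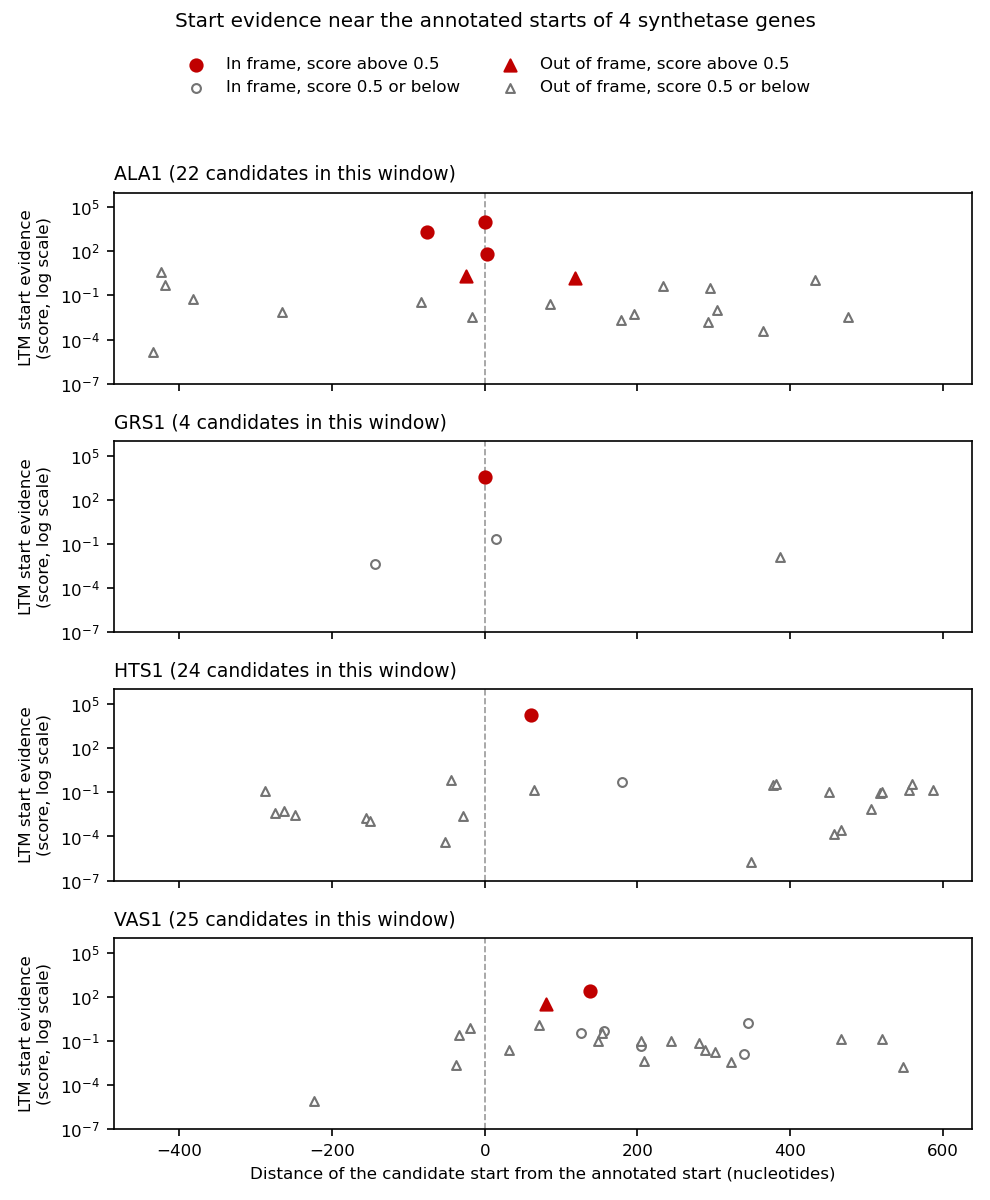
LTM start evidence (score, log scale) of the candidate starts around the annotated start of the 4 genes, against their distance in nucleotides from it (dashed line). Candidates further inside the genes are not drawn, among them the rated AUA of ALA1 at 1906 nucleotides. ALA1 shows an in-frame start 75 nucleotides upstream at 1924 beside the annotated start at 9734. The strongest listed starts of HTS1 and VAS1 lie 60 and 138 nucleotides downstream, at 18104 and 260. The first AUG of HTS1 and of VAS1 has no row in the table and is not drawn.

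In ALA1 the upstream ACG and the annotated AUG both stood out. The annotated AUG (position 959039 of SK1 chromosome 15, minus strand) had LTM evidence of 9734 and a forest score of 0.902. The ACG start, 25 codons upstream at 959114, had LTM evidence of 1924 and a score of 0.776, and its ORF encodes 983 amino acids against 958. The LTM evidence of the annotated start was thus 5.06 times that of the ACG.

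The ALA1 ACG stood high among starts of its kind in LTM evidence and score. Of 196 candidate ACG extensions it had the highest LTM evidence, and the next was that of SMX3 at 335. Its forest score ranked 3rd, behind SPP381 at 0.832 and UTH1 at 0.813. The median ACG extension had LTM evidence of 0.181, and 3.06% of ACG extensions were rated. Set against its own annotated start the rank was lower: a ratio of 0.198 ranked 10th of 191 ACG extensions with an annotated start in the table, where the median ratio was 0.000116.

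The S288C sequence has a second ACG directly after the first, 24 codons upstream, and it has no row in the table. Of 7 AUG or near-cognate codons in frame between the ACG start and the annotated AUG, only the first ACG has one. A near-cognate codon differs from AUG at a single base.

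One more in-frame start of ALA1 was rated, an ACG 1 codon after the annotated AUG at 959036, with a score of 0.591. Both codons lie side by side in the printed sequence. Its LTM evidence of 65.1 was 0.00669 times that of the AUG beside it. Its value in the other data set, which the notes call CHX and do not describe further, was the largest of all ORFs ending at the ALA1 stop codon. On that scale the AUG reached 45.6% of it and the upstream ACG 7.98%. The upstream ACG was thus below the median ACG extension, which reached 13.0% of the strongest ORF with its stop codon. Of 2396 ACG truncations 1.17% were rated, but of the 18 that begin 1 codon inside the gene 27.8% were. Truncations of 1 codon at any start codon were rated in 40% of 190 cases. The deposited notes warn of a very high false positive rate for truncations and internal ORFs.

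The other rated candidates of ALA1 were out of frame and short. An AUU 25 nucleotides upstream of the AUG, with an ORF of 5 codons, scored 0.509 with LTM evidence of 2.23. An AUC 118 nucleotides inside the gene scored 0.502, and an AUA 1906 nucleotides inside it scored 0.610. Their LTM evidence was 1.51 and 2.60. Just below the cut-off lay an internal AUG, 433 nucleotides inside, at 0.488. Shares rated over the table were 16.7% for AUU upstream ORFs, 9.48% for AUC and 10.4% for AUA internal ORFs. The remaining 7 of 8 upstream candidates of ALA1 scored 0.199 to 0.464, with the highest LTM evidence, 3.73, at an AUG 424 nucleotides upstream.

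In HTS1 the second AUG held nearly all of the LTM evidence of the listed candidates. It lies 20 codons downstream of the annotated start, at 652095 of SK1 chromosome 16 (minus strand), and begins an ORF of 526 amino acids against 546. Its LTM evidence was 18104 and its forest score 0.923. It was also the strongest start in CHX among ORFs with the same stop codon.

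This AUG ranked 10th in LTM evidence and 11th in score among 4466 AUG truncations. The median AUG truncation had LTM evidence of 0.254, and the 75th percentile was 3.29. The share rated was 10.3% for all AUG truncations and 27.3% for the 1207 within 50 codons of the annotated start. Among these 1207 the HTS1 start ranked 7th by score. Its LTM evidence was also above the 75th percentile of annotated starts, 8158.

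The first AUG of HTS1 has no row in the table, so the 2 AUG codons cannot be compared by value. None of the 6 AUG or near-cognate codons in frame from the first AUG up to the second has a row. The other 3 in-frame candidates, an ACG 60 codons and AAG codons 436 and 471 codons inside the gene, scored 0.00972 to 0.0289, and the strongest of them had LTM evidence of 0.482. The leader held 7 upstream candidates, including AUG codons 288, 275, 263 and 248 nucleotides before the annotated start. None was rated: their scores ran from 0.203 to 0.363 and their LTM evidence reached 0.125. The share of upstream ORFs at AUG that were rated over all genes was 29.3%. Of 2 candidates overlapping the annotated start, an AUG and an AUA 44 and 29 nucleotides before it, the higher scored 0.325.

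VAS1, like HTS1, has no row for its first AUG, and the LTM evidence at its second AUG was far lower. Its second AUG, 46 codons inside the annotated ORF at 677159 of SK1 chromosome 7 (plus strand), had LTM evidence of 260 and a score of 0.618, and begins an ORF of 1058 amino acids against 1104. It had the highest LTM evidence of the listed candidates of the gene. The 260 lies below the 25th percentile of annotated starts, 623. By score it was 372nd of 4466 AUG truncations and 281st of the 1207 within 50 codons, of which 27.3% were rated, so its passing the cut-off does not set it apart from them.

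In CHX the order of the VAS1 starts was different. The second AUG had 21.5% of the value of the strongest ORF with that stop codon, below the 35.5% median of AUG truncations within 50 codons. That ORF began at an AAG 115 codons inside the gene, which had LTM evidence of 1.75 and a score of 0.183. An AAG 113 codons inside reached 91.5% in CHX, with LTM evidence of 0.0135 and a score of 0.0952. The remaining 5 unrated in-frame candidates scored 0.00905 to 0.0180.

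The second rated candidate of VAS1 was an out-of-frame UUG, 80 nucleotides inside the gene at 677101, between the 2 AUG codons. Its ORF has 12 codons, its score was 0.570 and its LTM evidence 32.8. UUG internal ORFs were rated in 6.89% of 8965 cases, and this one ranked 387th. No candidate before the annotated AUG of VAS1 was rated. These were a UUG and an AUA in the leader and AUG codons 34 and 19 nucleotides upstream that overlap the start, with scores of 0.227 to 0.444.

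GRS1 had few listed candidates, and 1 of them held nearly all of their LTM evidence. Its annotated AUG (470578 of SK1 chromosome 2, minus strand) had LTM evidence of 3375 and a score of 0.902, close to the medians of all annotated starts, 2956 and 0.896, and it was the strongest start in CHX as well. The second highest LTM evidence among the listed candidates of the gene was 0.229.

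The only candidate extension of GRS1, an AUC 48 codons upstream at 470722, was not rated. It scored 0.0175 with LTM evidence of 0.00401, and 228 of 301 AUC extensions scored higher. The share rated over AUC extensions was 2.33%. An AUC 5 codons inside the gene scored 0.0144. The gene had 1.20 candidates per 100 codons, at the 0.877th percentile of 5699 genes. ALA1, HTS1 and VAS1 had 5.22, 6.23 and 5.43, against a median of 7.66 over all genes. GRS2, the paralog of GRS1, had 5.18. The sources used here do not say how footprints shared by the paralogs were handled.

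The table also gives CHX values for the stop codon of each gene. The CHX regression value for all ORFs that end at the stop codon was 3.52 for ALA1, 1.50 for VAS1, 1.29 for HTS1 and 1.28 for GRS1. These lie at the 78.2nd, 61.3rd, 57.9th and 57.7th percentiles of 5301 genes. The deposited strength of evidence for the stop codon in CHX, another score, had a different order: 4641 for VAS1, 1816 for ALA1, 1235 for HTS1 and 971 for GRS1, at the 99.6th, 94.9th, 87.3rd and 78.4th percentiles. VAS1 thus stood above HTS1 on both CHX scores for the stop codon and below it in the LTM evidence of the second AUG. Without replicates the error of these values is not known.

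**Figure D2:**
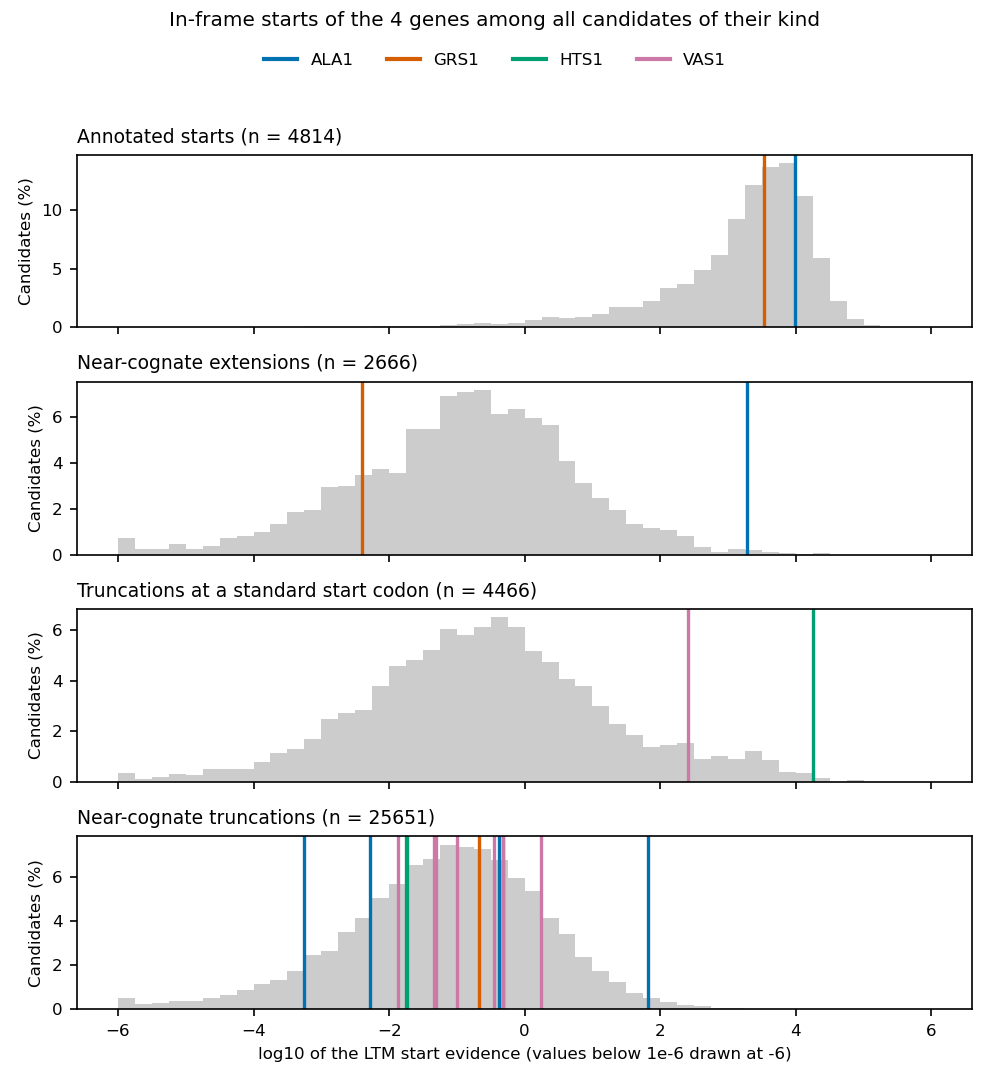
Distribution of log10 LTM start evidence over all candidates of each kind (grey bars, percent of candidates), with the in-frame starts of the 4 genes as coloured lines. The annotated starts of ALA1 and GRS1 fall within the bulk of 4814 annotated starts, and the ALA1 ACG and HTS1 AUG lie in the upper tails of their kinds.

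**Figure D3:**
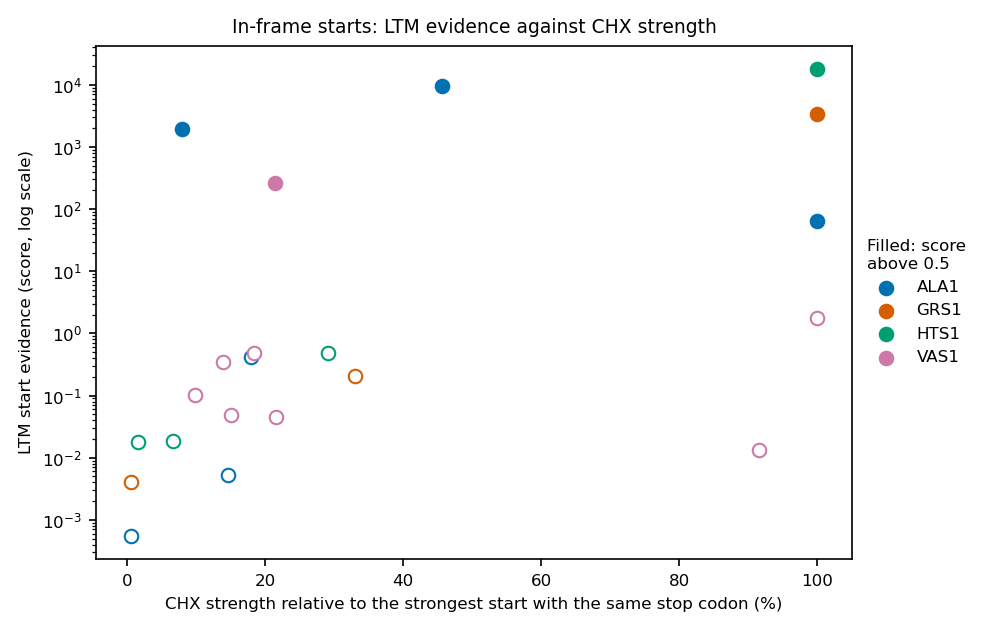
LTM start evidence (score, log scale) against the CHX value of each in-frame start as a percent of the strongest start with the same stop codon, with filled points for scores above 0.5. Among the listed starts, GRS1 and HTS1 each have 1 that leads in both. The VAS1 AUG at 260 stands at 21.5% and the ALA1 ACG at 1924 stands at 7.98%.

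The base 3 before the start codon differed between the first and second AUG in HTS1 and VAS1, and not between the ACG and AUG of ALA1. An A lies 3 bases before the start codon in 60.8% of 6004 nuclear coding sequences that begin with AUG in S288C, and purines there favour initiation in yeast. The first AUG of HTS1 has a T at that position, as do 11.2% of coding sequences, and the first AUG of VAS1 has a G, as do 19.3%. The G is a purine and the T is not. Only 1 of the 6 bases before either of these AUG codons is an A, and 95.3% of coding sequences have at least that many. The second AUG has 2 in HTS1, a number that 80.1% of coding sequences reach, and 3 in VAS1, which 53.4% reach. The second AUG of both genes has an A 3 bases before it, as do the ACG and the AUG of ALA1 and the AUG of GRS1. The unrated AUC of GRS1 has a G. Whether these bases bear on the use of the starts was not tested.

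The stretches between the starts were also compared for codons of charged amino acids, since mitochondrial presequences are typically rich in basic residues and poor in acidic ones. Beyond the start codon, the 25 codons of ALA1 hold 4 lysine or arginine codons and 0 aspartate or glutamate codons. The 20 codons of HTS1 also hold 4 and 0, and the 46 codons of VAS1 hold 9 and 0. None of the 3 stretches has an acidic codon.

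The same number of codons from the downstream start gave another picture in VAS1, with 10 basic and 10 acidic codons. In ALA1 it gave 5 and 2, and in HTS1 0 of either kind. Among all nuclear coding sequences, the first 46 codons were at least as basic and no more acidic than the VAS1 stretch in 0.840% of 5951 cases. The share was 8.12% for the ALA1 length and 8.31% for the HTS1 length. The 48 codons of the unrated GRS1 candidate hold 9 basic and 4 acidic codons, a balance reached by 9.72% of coding sequences. Serine or threonine codons numbered 11 in ALA1, 7 in HTS1 and 8 in VAS1.

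**Figure D4:**
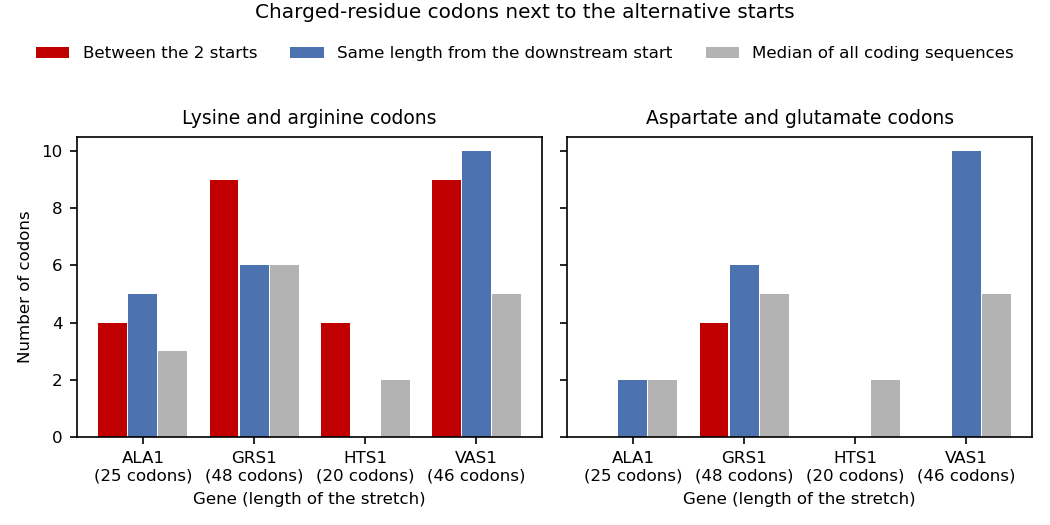
Number of lysine and arginine codons (left) and aspartate and glutamate codons (right) between the 2 starts of each gene, in the same length from the downstream start, and as the median over the first codons of all nuclear coding sequences of S288C. The acidic bars between the starts are at 0 for ALA1, HTS1 and VAS1 and at 4 for the unrated candidate of GRS1.

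Starts of other genes that were most alike were sought within the same class and start codon, by the mean absolute difference in percentile rank of score, LTM evidence and distance from the annotated start. For the ALA1 ACG, among 196, these were UTH1 (63 codons upstream, score 0.813, LTM evidence 277), SPR2 (19 codons, 0.750, 241) and MDH1, the mitochondrial malate dehydrogenase (20 codons, 0.691, 162), with mean differences of 2.64, 3.06 and 3.40 percentile points. For the HTS1 AUG, among 4466, they were YSA1, CBP4 and TRR2, the mitochondrial thioredoxin reductase, with AUG starts 19, 23 and 23 codons inside the gene and scores of 0.911, 0.912 and 0.916. The annotated start scored 0.0445 in YSA1 and 0.254 in TRR2, and CBP4, like HTS1, has no row for it. For the VAS1 AUG they were YOL118C, MSG5 and FUN19, 46, 44 and 49 codons inside, with scores of 0.677, 0.656 and 0.578. The annotated start scored 0.791 in MSG5 and 0.299 in FUN19, and YOL118C has no row for it. For the unrated GRS1 AUC they were CAT5, SEC72 and CTF8, with scores of 0.0137, 0.0196 and 0.0115.

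The 32 other synthetase genes served as a comparison by counts. They were 17 genes listed as cytosolic, CRS1 among them, 14 listed as mitochondrial and GRS2, and all had candidates. Of them, 3 had a rated extension and 3 a rated truncation, against 2.11% and 12.6% of 5699 genes. The extensions were those of FRS2 (AAG, 1 codon, score 0.692), MSY1 (AUC, 1 codon, 0.813) and MSF1 (AUG, 5 codons, 0.751). An AUG within 50 codons of the annotated start was listed in 6 of the 32 and rated in MSE1 (2 codons inside, score 0.609) and GRS2 (3 codons inside, 0.536), against 5.54% of all genes. No rated extension or truncation of these 32 genes moved the start by more than 5 codons. Those of ALA1, HTS1 and VAS1 included shifts of 25, 20 and 46 codons. The 4 genes were taken for their known 2 forms, and the share of all genes with a rated shift beyond 5 codons is not given here. CRS1, the cysteinyl-tRNA synthetase, which like the 4 genes serves both compartments, had no candidate extension and 3 truncations, none of them rated. Like HTS1 and VAS1, it has no row for its annotated start.

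Annotated starts without a row also occurred outside HTS1 and VAS1. Of the 32 other genes, 28 had a row for the annotated start, and 25 of these were rated. Over the table, 497 genes with an extension or truncation had no such row, and in 19.3% of them an AUG within 50 codons was rated. Where the annotated start had a row, this share was 4.94% of 4450 genes.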

How the data were processed

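The deposited table was made by the authors from LTM ribosome footprints. CASAVA, bcl2fastq 2.17 and Bowtie2 are named in the submitters' processing notes, with no settings. Per the notes deposited with the table, regressions on LTM and CHX data gave 6 features, from which a random forest, trained on coding sequences both annotated and not, gave the deposited forest score, and a rating is that score adjusted for overfitting. The share of the strongest CHX value with the same stop codon is a deposited fraction, printed here as a percent. Column names end in nosat, which is unexplained, so the libraries that entered are uncertain. Members and lists were chosen with earlier results of these data known.

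Distances came from the SK1 annotation and protein lengths. Percentiles count candidates at or below a value, and none is a test. The calculations used Python 3.11.15 with pandas 2.3.3, and ranking and nearest-start code was tested on simulated data. All candidates of the 4 genes were accounted for, and named in full were annotated starts, extensions, and rated starts, while other synthetases were named for a rated extension or an AUG rated within 50 codons, and the 3 most alike starts by mean rank difference. SMX3, SPP381 and CRS1 were named after their values were seen. Some SK1 starts may differ in sequence from S288C.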

Additional observations from a re-analysis of the deposited data

How the results depend on the processing

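Counts moved with the cut-off. In the frame of the 4 genes, 6 starts were rated above 0.5 and 3 above 0.8 or 0.9, namely the annotated AUG codons of ALA1 and GRS1 and the second AUG of HTS1. The ALA1 ACG and the VAS1 AUG did not pass 0.8. Over all classes the count went from 10 to 130 above 0.1, to 3 above 0.8 and to 3 above 0.9. The other synthetase genes with a rated extension or truncation went from 6 to 21 above 0.1, 1 above 0.8 and 0 above 0.9. The shares of all candidates and of all genes above 0.1, 0.8 and 0.9 are not given here. The counts at these cut-offs are thus not set against the whole series. The deposited rating in place of the forest score left these 3 counts within 1.5 times. For the 4 genes the rating is given only for the 10 candidates with a forest score above 0.5. It could thus lower their counts but not raise them. A limit of 50 codons left the count of the other synthetase genes the same. It could not have changed this count, since every rated shift of these genes lay well inside the limit.

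The start evidence of the CHX data set in place of LTM was tried on the best extension and best truncation of each gene, and turned the order of 2 of these pairs. The ALA1 ACG next to the AUG had 5.36 times the evidence of the AUG, and the VAS1 AUG had 0.0221 times that of the AAG 115 codons inside. The other ratios of this set kept their side of 1, at 0.0943 for the upstream ACG of ALA1, 5.91e-05 and 0.189 for the AUC extension and AUC truncation of GRS1 and 11.6 for the HTS1 AUG over its strongest in-frame rival. Among the remaining truncations of VAS1, 3 also went from below to above the second AUG, with 1.42 times its evidence for a UUG 52 codons inside, 37.7 for an AAG at 113 and 1.20 for an AAG at 1080. The cause was not tested.

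Of 21 in-frame starts, the percentile left its exact 95% interval in 8 when all start codons of the class were pooled. It did so in 15 when the best candidate of each gene was used, and in 5 of 9 when only starts within 50 codons were used. The interval is binomial on the share of the pool at or below the value, and it narrows as the pool grows. It does not measure the error of a start's own value. Above the 95th percentile stood 3 starts, or 4 with all start codons pooled. No paired analysis was possible because each group has 1 library and the table has no column per library. Depth is unknown, so a low score cannot be told from low coverage.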
